A study of Mus musculus with 10 samples.

Results

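Immunoglobulin and B cell receptor transcripts were examined in mouse mammary tumours through 6 genes, Ighm, Jchain, Cd79a, Cd79b, Cd22 and Blk, out of 8251 genes with a probe set of their own on the array. The genes were selected on measured values of these arrays, namely the high level of 1 Ighm probe set in the ILn tumours. A probe set is a group of short oligonucleotides on the array meant to report 1 transcript, or several related ones. To these genes alone 22 probe sets are annotated: 16 to Ighm, 2 to Blk and 1 to each of the others. All 22 were followed on all 10 arrays, and 12 of them, with at least 1 for every gene, were bright enough to be tested.

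Total RNA came from tumours of the mammary gland in adult females, 90 days of age. The series concerns mice carrying MMTV-PyMT, a transgene in which the promoter of mouse mammary tumour virus drives the polyomavirus middle T antigen, chiefly in mammary epithelium. The titles name a strain on 9 arrays: FVBn on 1 array (B) and ILn, LP, MOLF and NZB on 2 arrays each (A and B), while the strain label of all 10 reads FVB/Nj. The remaining array carries no strain name and was kept out of all comparisons. Its title says neither tumour nor mix, and no other array bears its title date. Each of the 9 is titled a mix, with no word on its components, and the sources do not say whether the 2 arrays of a name represent different mice. P-values thus reflect the scatter among arrays, possibly technical, and no more.

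A mature B cell displays the antibody IgM, and Ighm encodes the constant part of its heavy chain. The proteins CD79A and CD79B carry the signal of this antibody into the cell, the kinase BLK relays it, and CD22 dampens it. When a B cell becomes a plasma cell it secretes antibody in place of displaying it, and the J chain (Jchain) joins IgM or IgA molecules into polymers. In the mammary gland, plasma cells that make IgA supply milk with antibody, so both cell stages can contribute RNA to a bulk tumour sample. In such a sample, fewer cells of a type and less RNA per cell cannot be told apart.

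Values are quantile normalized log2 intensities, in which 1 unit is a 2-fold difference. Intensities below the 30th percentile were raised to a floor of 4.75, so a value of 4.75 means not measurably above the dim end of the array. The probe sets that met the brightness filter, above the floor on at least 2 of the 9 strain arrays, numbered 9897. Levels of different probe sets are not comparable with each other, since each has its own brightness. MOLF A and NZB B stood apart: the correlation between them was 0.944, and against the other 7 strain arrays it was 0.860 to 0.903. The epithelial keratin Krt8 lay between 10.81 and 11.40 on the 9 strain arrays. The B cell membrane gene Ms4a1, which encodes CD20, lay between 6.62 and 7.60 there.

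The RefSeq reference (GRCm38.p6) holds a promoter window, from 250 bases before to 50 after the start of the gene, for 3 of the 6 genes. The windows of Cd79a and Jchain are shown because these genes stand for the receptor-bearing and the secreting stage, and their values over the 9 strain arrays correlated at 0.01. Both strands of each window were searched for the octamer ATGCAAAT, bound by OCT factors at immunoglobulin promoters, and for the PU.1 core GAGGAA, which reads TTCCTC on the other strand. Capitals mark the PU.1 core, and the sequences run 5′ to 3′ on the strand of the gene.

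Cd79a, chr7:24897247-24897546, plus strand: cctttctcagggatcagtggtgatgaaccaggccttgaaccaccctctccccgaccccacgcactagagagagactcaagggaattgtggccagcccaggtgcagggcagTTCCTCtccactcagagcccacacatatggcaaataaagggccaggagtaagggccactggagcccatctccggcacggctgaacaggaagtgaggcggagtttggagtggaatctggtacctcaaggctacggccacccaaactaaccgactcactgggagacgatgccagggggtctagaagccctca

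Jchain, chr5:88527848-88528147, minus strand: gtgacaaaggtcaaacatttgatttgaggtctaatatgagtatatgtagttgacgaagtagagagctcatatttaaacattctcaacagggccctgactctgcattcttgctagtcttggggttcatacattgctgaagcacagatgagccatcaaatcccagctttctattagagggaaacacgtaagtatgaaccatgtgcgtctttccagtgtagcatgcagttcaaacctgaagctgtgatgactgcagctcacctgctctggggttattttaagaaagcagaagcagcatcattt

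The octamer was in none of the 3 windows (Cd22 was the third) and in 1.74% of the 32851 promoters searched. The PU.1 core was in the Cd79a window, on the strand opposite to the gene and starting at position -140, and in 28.3% of all promoters. These matches describe the letters only.

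The probe sets annotated to Ighm alone did not report a common pattern. Their oligonucleotide sequences were not available, so they could not be placed on the constant or a variable part of the heavy chain. Of the 16, 5 stayed at the floor on all 9 strain arrays (101276_at, 101749_at, 101870_at, 96966_at and 99885_at). Another 5 rose above it on a single ILn array and were too dim to test: 100377_f_at reached 4.92, 101745_f_at 4.90 and 101871_f_at 4.78 on ILn A, and 101346_at reached 5.23 and 102159_at 4.98 on ILn B. The remaining 6 were tested. An ILn array had 7 or 8 Ighm probe sets above the floor, against 2 to 4 on each of the other 7 strain arrays. These counts are a description, because the ILn contrast chose the genes. The ILn counts include the probe set whose ILn level made that choice, and the 5 dim ones just named. No count over all probe sets stands beside them, so nothing is read from the difference.

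The brightest Ighm probe set, 93583_s_at, was of similar height in most tumours. It measured 7.36 in FVBn, 7.78 and 7.82 in ILn, 8.16 and 8.03 in LP, 8.10 and 6.98 in MOLF, and 8.25 and 8.12 in NZB. By mean the order was NZB (8.18 ± 0.09, SD, n = 2), LP (8.09 ± 0.09), ILn (7.80 ± 0.03), MOLF (7.54 ± 0.79) and FVBn (7.36, 1 array). NZB and LP overlapped, the ILn arrays lay below both, and of the MOLF arrays 1 lay with LP and 1 below FVBn.

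Probe set 93584_at, also annotated to Ighm, was dimmer. It measured 5.08 in FVBn, 5.70 and 5.92 in ILn, 6.58 and 6.07 in LP, 5.30 and 5.13 in MOLF, and 6.22 and 5.24 in NZB. Both LP arrays lay above both MOLF arrays, a difference of 1.11 (SE 0.42). That difference had an unadjusted p of 0.032 but an adjusted p of 0.704 with limma, so it did not pass.

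Probe set 99420_at was the one high in ILn only, and this contrast chose the genes, so its values are a description. It measured 8.26 and 8.35 in the ILn tumours and stood at the floor on the other 7 strain arrays, FVBn included. The difference between the ILn mean and the mean of LP, MOLF and NZB was 3.55. In this probe set ILn was thus at least 11.7-fold higher, because the other side is only a bound. Which part of the heavy chain transcript this probe set reports is not known. In deposited intensities, before any normalization, it read 906 and 283 in ILn and between 12.4 and 29.9 on the other strain arrays; the ILn A array as a whole was deposited on a brighter scale. The gap appeared on each of the title dates that held ILn beside another strain. ILn exceeded NZB by 3.51 on one date and by 3.59 on the other.

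Probe set 100362_f_at shared part of this pattern. It measured 7.01 and 6.54 in ILn, 5.91 in FVBn, 5.95 and 4.75 in LP, 5.46 and 5.60 in MOLF, and 4.75 on both NZB arrays. Both ILn arrays lay above all 6 arrays of LP, MOLF and NZB, by 1.56 on the mean, an understatement since NZB was at the floor. The last tested Ighm probe sets were close to the floor. 97577_f_at measured 5.33 and 4.76 in ILn and 4.94 in LP A, and 97568_at rose only on MOLF B (6.0) and NZB A (5.21). A further 3 probe sets list Ighm among several symbols, and in none did both ILn arrays lie above all 6 arrays of LP, MOLF and NZB. Of these, 99421_at lay between 8.49 and 8.82 on all 9 strain arrays. In 92470_f_at ILn (6.7 and 6.56) lay between LP (6.79 and 6.71) and NZB (6.13 and 5.0). The dim 97575_f_at reached 4.82 on ILn B and 5.80 on NZB B.

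**Figure D1:**
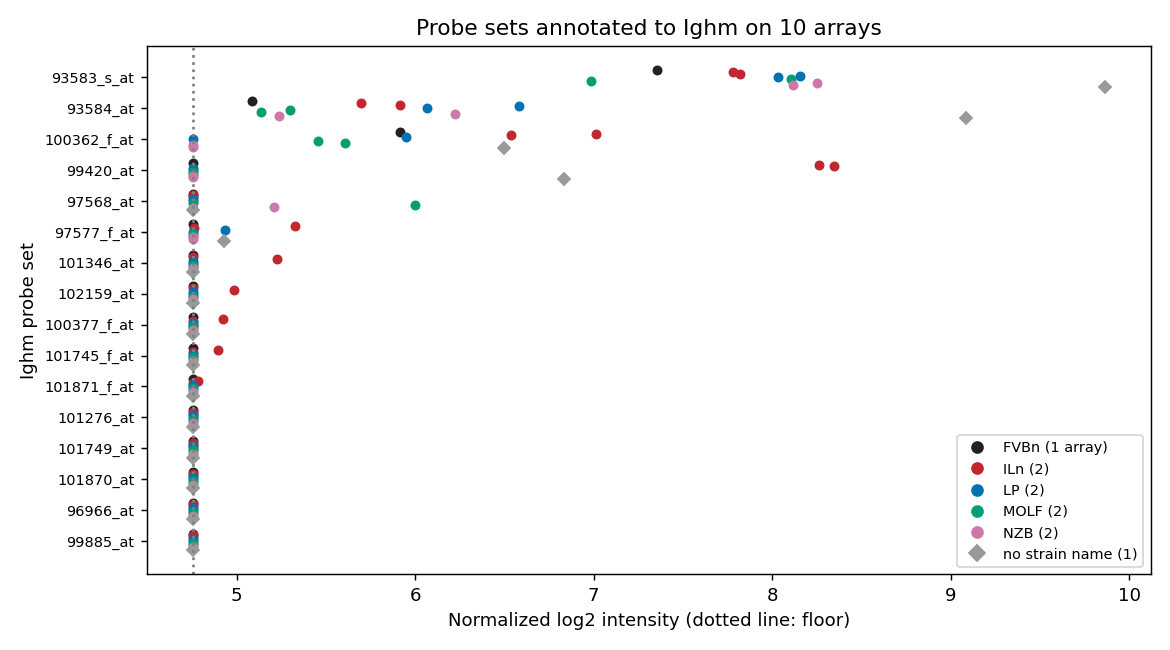
Normalized log2 intensity (horizontal axis) of the 16 probe sets annotated to Ighm (rows) on each of 10 arrays, with colour giving the strain name and a dotted line at the floor of 4.75. Probe set 99420_at is high in both ILn arrays and at the floor on the other 7 strain arrays, whereas 93583_s_at lies between 6.98 and 8.25 on all 9.

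Jchain, the polymerising chain of secreted IgM and IgA, was highest on the 2 ILn arrays and NZB B. It measured 5.99 in FVBn, 7.43 and 6.83 in ILn, 5.34 and 6.07 in LP, 6.30 and 5.55 in MOLF, and 6.25 and 7.24 in NZB. The order by mean was ILn (7.13 ± 0.43), NZB (6.75 ± 0.70), FVBn (5.99, 1 array), MOLF (5.93 ± 0.53) and LP (5.70 ± 0.51). ILn and NZB overlapped, LP and MOLF overlapped, and FVBn lay within the range of both of the latter. LP lay 1.04 (SE 0.52) below NZB, which did not pass (limma, adjusted p = 0.721), and the difference within the 1 title date that held both was -0.19.

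Cd79a, a signalling chain of the B cell receptor, was lowest in FVBn and ILn. It measured 5.91 in FVBn, 6.71 and 6.67 in ILn, 7.32 and 6.85 in LP, 7.44 and 6.96 in MOLF, and 6.88 and 7.42 in NZB. MOLF (7.20 ± 0.34), NZB (7.15 ± 0.38) and LP (7.09 ± 0.33) overlapped fully. The ILn arrays (6.69 ± 0.03) lay below all 6 of these, and FVBn below those. FVBn was 1.23 (SE 0.40) under the mean of LP, MOLF and NZB, with an unadjusted p of 0.016 and an adjusted p of 0.793 with limma, so this did not pass either.

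Cd79b, the partner chain, was near the floor in FVBn (4.84) and ILn (4.75 and 4.91). It measured 5.87 and 5.56 in LP, 6.02 and 4.75 in MOLF, and 4.75 and 6.06 in NZB. LP was the only strain name with both arrays clear of FVBn and ILn, while the MOLF and NZB pairs each had 1 array at the floor. The 2 high arrays of those pairs were MOLF A and NZB B, which stood apart from the rest over the whole array. Their part in the Cd79b values was not tested.

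Cd22, the inhibitory coreceptor, was above the floor on only 2 strain arrays, LP B (5.24) and NZB B (5.07). Blk, a Src-family kinase of B cells, was measured by a brighter and a dimmer probe set. The brighter, 95893_at, read 5.78 in FVBn, 5.78 and 5.50 in ILn, 5.91 and 6.21 in LP, 4.75 and 5.66 in MOLF, and 5.82 and 4.75 in NZB. LP (6.06 ± 0.21) was highest and its arrays lay above the other 7 strain arrays, but the difference from MOLF of 0.86 (SE 0.47) did not pass (limma, adjusted p = 0.865). The floor values were those of MOLF A and NZB B, the arrays that stood apart. Under the alternative settings the difference ranged from 0.41 to 1.35. The dimmer, 92359_at, exceeded the floor on ILn B (4.93), LP A (4.88) and NZB B (5.30) only.

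**Figure D2:**
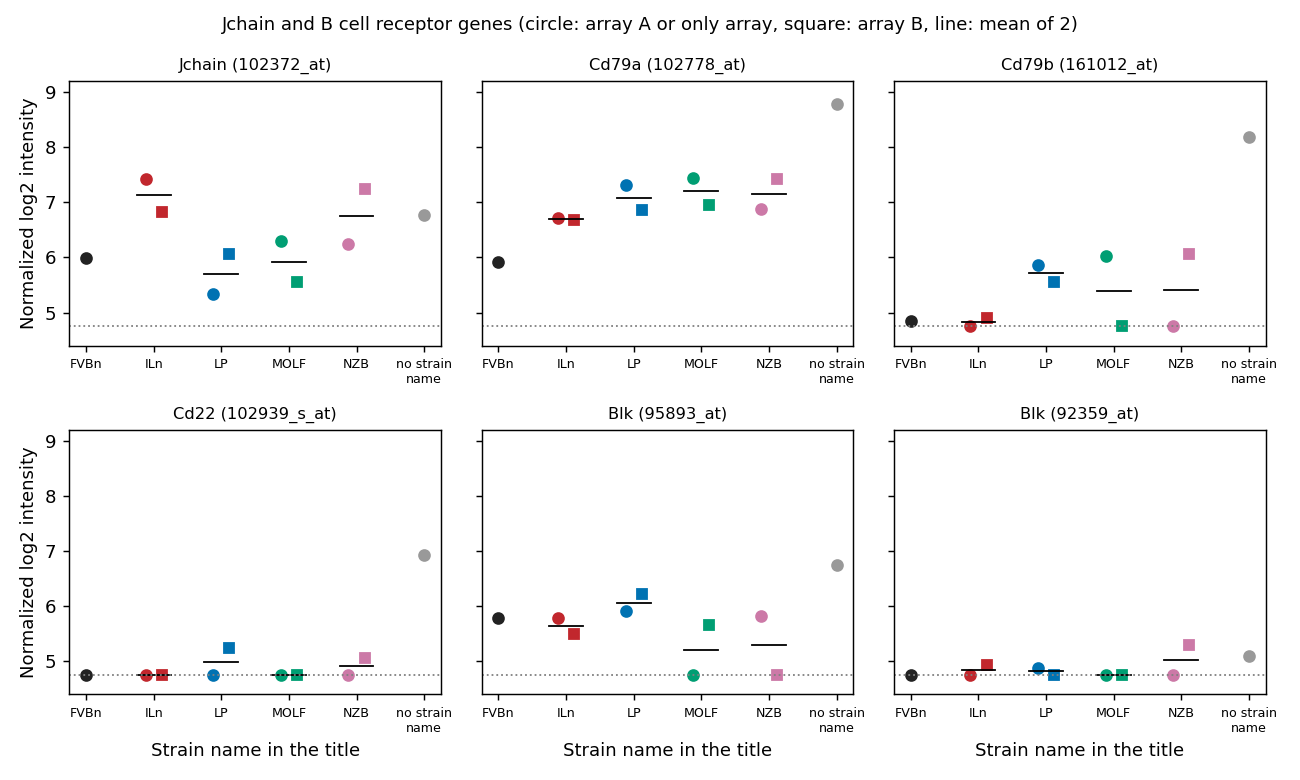
Normalized log2 intensity (vertical axis) of the probe sets of Jchain, Cd79a, Cd79b, Cd22 and Blk by strain name, with 1 point per array, a line at the mean of 2 arrays and a dotted line at the floor. The array with no strain name lies above all 9 strain arrays for Cd79a, Cd79b, Cd22 and 95893_at of Blk, but not for Jchain.

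None of the 12 tested probe sets passed in any comparison that leaves ILn out. For LP against MOLF limma called 0 of 12, with 1 at an unadjusted p under 0.05, where 0.445% of all tested probe sets were called. For LP against NZB it called 0 of 12, with 0 at an unadjusted p under 0.05, against 0.0101% of all. For MOLF against NZB it called 0 of 12, again with 0 at an unadjusted p under 0.05, against 0.333% of all. For FVBn against the mean of LP, MOLF and NZB it called 0 of 12, with 1 at an unadjusted p under 0.05, against 0.344% of all. The background is so low that 12 probe sets at that rate would seldom hold a call, and the absence of calls does not show that the levels were equal. The median difference over the 12 was 0.08, 0.04, -0.05 and -0.14 in these comparisons, beside medians of 0, 0, 0 and -0.02 over all tested probe sets. For FVBn, with its 1 array, the spread of the other names was assumed.

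The immunoglobulin loci hold 60 further probe sets on the array, 48 of them with 1 symbol, from 26 other genes. The 3 that list Ighm among several symbols are included, and 42 of the 60 were tested. One stood out in strain comparisons that the choice of genes did not use. Probe set 93086_at is listed under 5 symbols of the kappa light chain locus (Igkv6-23, Igkv4-53, Igkv8-30, Igkj1 and Igkc), so no single gene can be named for it. It measured 9.38 in FVBn, 11.52 and 11.48 in ILn, 10.07 and 9.98 in LP, 8.51 and 8.59 in MOLF, and 10.49 and 10.22 in NZB. The 2 arrays of each strain lay close together and no strain overlapped another.

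In this kappa probe set MOLF was 2.78-fold below LP and 3.49-fold below NZB. The differences were 1.48 (SE 0.14) for LP minus MOLF (limma, adjusted p = 0.00817) and -1.80 (SE 0.14) for MOLF minus NZB (adjusted p = 0.00693). LP and NZB differed by -0.33, which did not pass (adjusted p = 0.721). Within single title dates LP exceeded MOLF by 1.56 and 1.40, and MOLF lay 1.90 below NZB. Both calls rest on few arrays. LP against MOLF no longer passed without ILn A (adjusted p = 0.0618), ILn B (0.0629), LP A (0.181), LP B (0.143) or MOLF A (0.0623). MOLF against NZB no longer passed without ILn B (0.0516) or LP B (0.0562). The first was also lost without the intensity trend (0.0605) and the second with the title date as a block (0.0932). Median centring ended both calls (0.233 and 0.409), as did leaving out MOLF A and NZB B together (0.0836 and 0.105). Under all 17 alternative settings MOLF stayed the lower of each pair, by 1.42 to 1.75 below LP and by 1.67 to 1.97 below NZB.

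The call of 93086_at was the only one among the 42 in LP against MOLF and in MOLF against NZB, where 4 and 5 had an unadjusted p under 0.05 (6.26% and 6.61% of all tested probe sets did). With limma 0 passed in LP against NZB (3 at an unadjusted p under 0.05, against 6.67% of all) and 0 in FVBn against the other 3 (0 at an unadjusted p under 0.05, against 4.32% of all). The variable-region probe set of Igkv6-23, 102156_f_at, had the same order of strains by mean; since both probe sets list Igkv6-23, they are not separate measurements. It measured 7.34 in FVBn, 9.39 and 9.26 in ILn, 7.50 and 7.46 in LP, 6.64 and 5.71 in MOLF, and 8.12 and 8.37 in NZB. MOLF was again lowest, and both its arrays lay below all others. Its difference from NZB passed only when the brightness filter was raised to 4 arrays (adjusted p = 0.0447) or MOLF A was left out (0.0401). The heavy chain variable gene Ighv3-6 (96970_at) was at the floor on both NZB arrays and at least 1.96 higher in LP. Igkv8-19 (93227_f_at) was at the floor on both LP arrays and at least 0.92 higher in NZB. Neither passed (adjusted p = 0.584 and 0.643), and with the floor at the 20th percentile LP minus NZB was 2.59 and -1.67.

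Igha encodes the heavy chain of IgA, the main antibody of secretions. Its probe set 100583_at measured 7.51 in FVBn, 9.09 and 9.37 in ILn, 7.24 and 7.07 in LP, 6.60 and 6.39 in MOLF, and 7.05 and 6.11 in NZB. ILn (9.23 ± 0.20) was higher than every other strain array, by 2.49 over the mean of LP, MOLF and NZB, or 5.60-fold. FVBn came next and was 0.77 (SE 0.38) over those 3, which did not pass (limma, adjusted p = 0.975). Ighd (101157_at), the heavy chain of IgD on naive B cells, ran the other way in ILn, at 7.05 and 7.26 against 7.25 to 7.79 in LP, MOLF and NZB, with MOLF B inside the ILn range. The lambda constant gene Iglc1 (93639_r_at) was high only on MOLF A (9.45) and NZB B (9.53), the arrays that stood apart, and between 4.75 and 5.91 on the other 7. The part of those arrays in it was not tested.

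**Figure D3:**
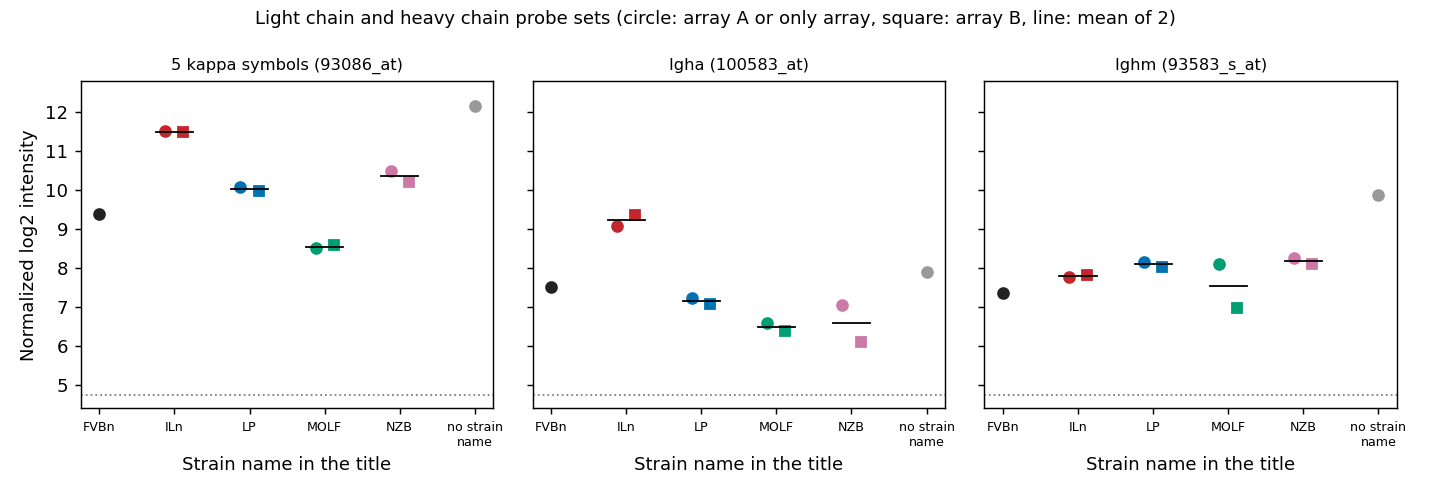
Normalized log2 intensity (vertical axis) of the kappa probe set 93086_at, of Igha and of the brightest Ighm probe set by strain name, with 1 point per array, a line at the mean of 2 arrays and a dotted line at the floor. In the kappa probe set the pairs separate, with ILn near 11.50 and MOLF near 8.55. Igha 100583_at, the brightest Igha probe set, is highest in ILn, while Ighm 93583_s_at does not show ILn above the rest.

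The ILn values of the other probe sets are a description, because the choice of genes used this contrast, and nothing is read from the counts that follow. Both ILn arrays lay above all 6 arrays of LP, MOLF and NZB in 2 of the 12 tested probe sets (99420_at and 100362_f_at of Ighm) and in 15 of the 42 other immunoglobulin probe sets, against 6.71% of all tested probe sets. Of those, 99420_at is the probe set that chose the genes, and it and 4 of the 15 were above the floor on the 2 ILn arrays only, so they met the brightness filter through ILn and had to lie above the rest. Leaving such probe sets out, the counts were 1 of 11 and 11 of 38, beside 6.52% of all. Both lay below all 6 in 1 of 12 (Cd79a) and 0 of 42, against 3.72% of all. The 15 comprised 5 of 15 heavy chain and 10 of 27 light chain probe sets. Several of the 15 list the same gene symbols, so not all are separate measurements. Among the 15 the largest differences were those of Igha 100583_at, 102156_f_at of Igkv6-23 (2.03 higher) and 93086_at (1.86). Next came 101640_f_at, listed under several kappa genes (1.29), and 102076_at of Igkv4-68 (1.17). The medians were 0.01 over the 12, 0.20 over the 42 and -0.02 over all tested probe sets. Without MOLF A and NZB B, a setting chosen after the data were seen, the counts above were 3 of 12 and 15 of 42, against 9.29% of all.

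The other 5 genes went both ways in the ILn contrast. Jchain was 1.0 higher in ILn than in the mean of LP, MOLF and NZB, though NZB B overlapped ILn. Cd79a was 0.45 lower, Cd79b 0.67 lower with overlap at the floor, Cd22 0.13 lower and at the floor, and Blk 95893_at 0.12 higher with overlap.

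**Figure D4:**
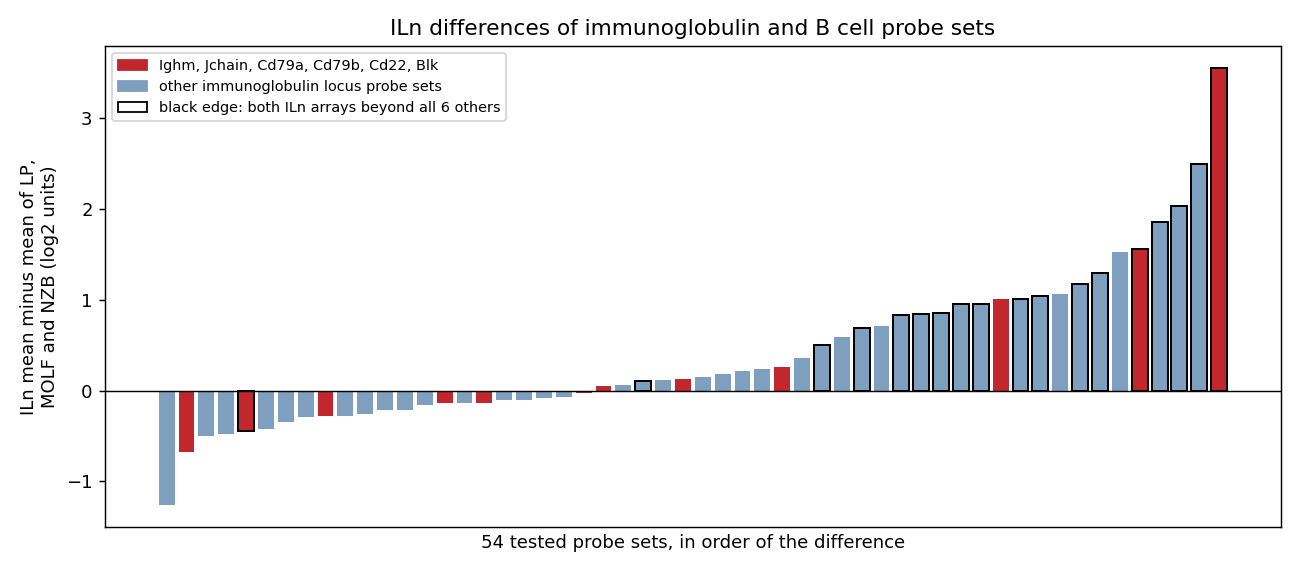
Mean of the 2 ILn arrays minus the mean of LP, MOLF and NZB (vertical axis, log2 units) for the 54 tested probe sets, ordered by that difference, with the 6 genes in red, other immunoglobulin probe sets in blue and a black edge where the ILn pair lay outside the range of the 6 LP, MOLF and NZB arrays. The black-edged bars are 17 above 0 and 1 below, the latter Cd79a, and the tallest is Ighm 99420_at at 3.55.

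Other features of the samples moved with the strain names too. Genes of salivary and lacrimal gland (12 of 20 listed genes tested) averaged 2.67 above their 9-array mean in FVBn and 2.21 and 2.15 above it in ILn, but between -1.81 and -0.25 on the LP, MOLF and NZB arrays. Amylase, Amy1, was at the floor on the LP and NZB arrays. FVBn, the array with the highest salivary mean, had Jchain at 5.99, inside the range of LP and MOLF. Its Igha 100583_at value was 7.51, next below ILn. The log2 ratio of the 3′ to the 5′ actin control, which rises as RNA degrades, was 0.22 to 0.28 in FVBn and ILn tumours, against 0.60 to 1.12 for LP, MOLF and NZB. The part of either in the ILn values was not tested.

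Of the wider B cell list, 34 of 49 genes were tested, and limma called 0 in each of the 4 comparisons. At an unadjusted p under 0.05 there were 5, 1, 1 and 0 in LP against MOLF, LP against NZB, MOLF against NZB and FVBn against the other 3, where 6.26%, 6.67%, 6.61% and 4.32% of all 9897 tested probe sets were under that p. The median differences over the list were 0.08, -0.23, -0.28 and -0.07. Cd24a, a surface glycoprotein of B cell precursors and also of epithelium, was 0.69 lower in LP than in MOLF and 0.72 higher in MOLF than in NZB (adjusted p = 0.256 and 0.264). H2-Oa, which restrains peptide loading onto class II molecules in B cells, was at the floor on both MOLF arrays and at least 1.0 higher in LP (adjusted p = 0.581), or 1.93 with the floor at the 20th percentile. Plcg2, a phospholipase downstream of the receptor, was 0.57 lower in LP than in NZB (adjusted p = 0.721) and 0.38 lower in FVBn than in the other 3 (adjusted p = 0.975). The transcription factors Ikzf1 (1.22 lower in LP than in NZB), Spib (0.78 higher in MOLF than in NZB) and Bcl6 (0.82 lower in FVBn) did not pass either, at adjusted p of 0.721, 0.773 and 0.975.

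Plasma cell and secretion genes gave the same count. With limma 0 of 24 tested genes were called in each comparison, with 0, 1, 1 and 1 at an unadjusted p under 0.05 (all tested: 6.26%, 6.67%, 6.61% and 4.32%), and the median differences were -0.01, 0.09, -0.02 and -0.08. The translocon subunit Sec61b was 0.46 higher in LP than in MOLF and 0.70 higher than in NZB (adjusted p = 0.865 and 0.721). The endoplasmic reticulum genes Creld2 (0.54 higher in LP than in NZB and 0.60 higher in MOLF than in NZB), Dnajc3 (0.73 higher in LP than in MOLF) and Pdia6 (0.54 higher in FVBn) had adjusted p from 0.703 to 0.975. Ell2, an elongation factor that promotes the secreted form of antibody RNA, was 0.50 lower in MOLF than in NZB (adjusted p = 0.870). Pigr, the receptor that carries polymeric IgA across epithelium, was 0.63 lower in FVBn (adjusted p = 0.975).

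Genes of B cell homing and lymph node structure (14 of 22 tested) had 0 calls with limma as well, and 1, 1, 1 and 0 at an unadjusted p under 0.05, beside the same shares of all tested probe sets. Their median differences were 0.03, -0.21, -0.20 and -0.14. Ltb, a lymphotoxin chain made by lymphocytes, was 1.63 higher in LP than in MOLF (adjusted p = 0.676). It belongs to the wider B cell list too, so in LP against MOLF both unadjusted counts include it. Glycam1, a ligand of L-selectin on lymph node venules that is also a milk protein, was 0.82 lower in LP than in NZB and 0.82 lower in MOLF than in NZB (adjusted p = 0.581 and 0.447). Cxcr4 was 0.69 lower in LP than in MOLF and 0.80 lower than in NZB, Madcam1 0.77 lower in MOLF than in NZB and 0.73 lower in FVBn, and Lta 0.67 higher in FVBn, with adjusted p from 0.721 to 0.975. T cell genes (9 of 19 tested) and macrophage genes (15 of 16) also had 0 calls in each comparison, and mammary epithelial genes (12 of 12) likewise had 0. At an unadjusted p under 0.05 the counts in the 4 comparisons were 0, 0, 0 and 1 for T cells, 2, 1, 0 and 1 for macrophages, and 6, 6, 3 and 1 for epithelium, beside 6.26%, 6.67%, 6.61% and 4.32% of all tested probe sets. The epithelial counts of 6, 6 and 3 of 12 were thus furthest above the share of all among the T cell, macrophage and epithelial lists. Other counts above that share included 5 of 34 in the wider B cell list (LP against MOLF). So did 5 of the 42 immunoglobulin probe sets in MOLF against NZB. Salivary and lacrimal genes had 5 calls for LP against MOLF (4 lower in LP), 0 for LP against NZB (1 at an unadjusted p under 0.05), 4 higher in MOLF than in NZB and 9 higher in FVBn, out of 12 genes, where 0.445%, 0.0101%, 0.333% and 0.344% of all probe sets were called.

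The genes most like each member were those with the highest Pearson correlation over the 9 strain arrays, given as a description because strain, array quality and title date are shared by all genes. For Ighm 93583_s_at these were Pla2g5 (0.95), Cacna1s (0.91) and Matn4 (0.91). For Jchain they were Psmb6 (0.93), Map3k4 (0.91) and Pias1 (0.90), and for Cd79a Dhrs3 (0.97), Cox4i1 (0.94) and Dnajb11 (0.93). Cd79b was nearest to Slc2a4 (0.97), Snx5 (0.97) and Ckmt2 (0.95), and Blk to Ctps (0.97), Traf2 (0.97) and Gbp2 (0.97). The values for Cd22 rest on its 2 arrays above the floor and those for Ighm 99420_at on the 2 ILn arrays, and the nearest genes by that measure were Ldah, Pkia and Gucy2c for Cd22 and Lyve1, Igkv6-14 and Capg for Ighm 99420_at.

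Within the group, Cd79a and Cd79b correlated at 0.73 over the 9 arrays, and Ighm 93583_s_at correlated with them at 0.53 and 0.58. The other genes did not share this. With Cd79a, Cd79b and Ighm 93583_s_at, Blk 95893_at correlated at -0.52, -0.52 and -0.18. Jchain correlated with the same probe sets at 0.01, -0.04 and 0.25, and Cd22 at 0.19, 0.45 and 0.29. Blk correlated with Jchain at -0.41 and with Cd22 at 0.07, and Jchain with Cd22 at 0.15. These 9 arrays include 2 that stand apart, which weigh on each of these values. No correlation is given for Ighm 99420_at, which was at the floor on 7 of the 9.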

How the data were processed

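The deposited values are probe set intensities on a linear scale from Affymetrix mg_u74av2 arrays, 1 per probe set and array, per the file headers and labels. How the authors summarised probes is not stated in those sources. Trimmed by 2% at each end, the mean intensity was 150.1 on 9 of the 10 arrays but 500.2 on ILn A.

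Groups were taken from the strain names in the titles. Here log2 intensities of the 9 strain arrays were quantile normalized (R 4.3.3, limma 3.58.1) and floored at the 30th percentile, an intensity of 27.0, and the array lacking a strain name was then given that distribution. Of 12488 probe sets, 66 controls were left out, and 9897 that exceeded the floor on at least 2 of the 9 arrays were tested. Symbols came from the platform annotation (1 symbol for 10855 probe sets, several for 396, none for 1237) and were updated through RefSeq for 10839. Under this rule Igh-6 counts as Ighm and Igj as Jchain.

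A single limma model (lmFit, eBayes with trend) estimated 1 mean per strain name, 5 in all. Benjamini-Hochberg adjustment ran over all tested probe sets, and 0.05 was the threshold. The model had 4 residual degrees of freedom. The number of arrays limits the precision. All groups shared 1 spread, although the SD of the A minus B difference was 0.379 (ILn), 0.466 (LP), 0.863 (MOLF) and 0.913 (NZB).

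The members and gene lists were chosen with earlier results of these data known. The ILn contrast chose the members and was not tested. Named genes were all member probe sets and, for each list and comparison, up to 4 called genes with the smallest p or else the 2 with the smallest p; the T cell, macrophage, salivary and epithelial lists are given as counts. A list gene was represented by its tested probe set with the highest mean. Alternatives covered normalization, floor, brightness filter, variance trend, array weights, title date, array letter and arrays left out. Promoter sequences and their coordinates are those of RefSeq, GRCm38.p6.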

Additional observations from a re-analysis of the deposited data

Results flagged for a closer look

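The array with no strain name exceeded all 9 strain arrays in 6 of the 12 tested probe sets (50% of them, against 19% of the other immunoglobulin probe sets and 16.4% of all tested). It is 1 array outside every comparison, and these are its values with the highest strain array beside them. Ighm 93583_s_at read 9.86 (8.25) and Ighm 93584_at 9.08 (6.58). Cd79a read 8.78 (7.44), Cd79b 8.18 (6.06), Cd22 6.93 (5.24) and Blk 95893_at 6.75 (6.21). Jchain, at 6.77, lay within the strain range, and Ighm 99420_at, at 6.83, lay between the ILn arrays and the rest. The kappa probe set 93086_at read 12.16 (11.52), while Igha 100583_at, at 7.91, lay within the strain range. On the same array the mean of the B cell list was 0.78, of the homing list 0.78 and of the T cell list 0.92 above the 9-array mean, while that of the plasma cell list was -0.36 and that of the mammary epithelium list -1.55. Genes of the plasma cell list went both ways, more of them downward. Cd27 (7.57), Cd28 (6.65), Ly6d (8.37) and, barely, Dnajb9 (8.15) lay above all 9 strain arrays. Xbp1 (9.18), Pigr (8.80), Hspa5, Hsp90b1, Pdia3, Spcs2, Fkbp11, Creld2, Ell2 and, barely, Dnajb11 lay below all 9. The other tested genes of that list lay within the strain range. Whether these lists have a part in the member values was not tested.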

How the results depend on the processing

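The number of member probe sets called was 0 in all 4 comparisons under all 17 alternatives. The described ILn difference of Ighm 99420_at, 3.55, was 3.62 with median centring, 4.11 with a floor at the 20th percentile and 3.69 without MOLF A and NZB B, and 3.49 to 3.62 with each of the 8 ILn, LP, MOLF and NZB arrays left out in turn; the lower floor raises it because the other strains sit at the floor. Calls among the other immunoglobulin probe sets, 1 for LP against MOLF and 1 for MOLF against NZB, both became 0 with median centring and without MOLF A and NZB B. The first was 0 without the intensity trend, and the second was 0 with title date as a block and 2 with a filter of 4 arrays. With each of those 8 arrays left out in turn they ranged from 0 to 1 and from 0 to 2. With no filter on dim probe sets FVBn against the other 3 gave 1 call, Igkv15-103 (101330_f_at), at 0.26 above the floor. The cause of these changes was not tested. The array letters did not pair the samples: the A minus B differences of the strains correlated at -0.02 to 0.13, except -0.71 for MOLF and NZB. With the array letter as a replicate block the immunoglobulin calls stayed at 1 (adjusted p = 0.0267) and 1 (adjusted p = 0.0189), and members stayed at 0. Calls over all tested probe sets were less stable, at 2 to 52 for LP against MOLF (44 as reported), 0 to 7 for LP against NZB (1), 0 to 44 for MOLF against NZB (33) and 17 to 107 for FVBn against the other 3 (34). Signals at the floor limit Cd22, Cd79b, the Blk probe sets and 14 of the 16 Ighm probe sets.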
